A study of Mus musculus with 24 samples.

Results

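The 10 genes described here belong to the mammalian circadian clock and its direct outputs: Per1, Per2, Per3, Cry1, Ciart, Arntl, Nr1d1, Nr1d2, Dbp and Tef. They were chosen by name, with their values in the blood cell libraries already known, out of 55335 genes listed for those libraries. All 10 were found by symbol in both kinds of data of the series. The series holds 24 mouse libraries. In the first kind, total RNA was taken from peripheral blood mononuclear cells (PBMCs, the lymphocytes and monocytes of blood) of mice labelled with a wild type genotype, in groups labelled ct, WT and Y, with 3 libraries each. The labels give these only as treatments and do not explain them, and nothing in the sources used here gives the hour at which blood was drawn or says that the 3 libraries of a group came from separate mice. In the second kind, RNA on the outer face of the plasma membrane was copied in place by AMOUR, in which fixed cells held on concanavalin A beads are annealed with random primers that carry a T7 promoter and are copied by T7 RNA polymerase. It was applied to B cells, T cells (taken with a CD8 T cell kit) and NK cells from spleen and to haematopoietic stem and progenitor cells (HSPCs, the cells left by lineage depletion) and monocytes from bone marrow of C57BL/6 mice, all with genotype WT, with 3 libraries each.

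The clock is a feedback loop of transcription. The activator BMAL1, encoded by Arntl, pairs with CLOCK and binds E-boxes in the promoters of the Per and Cry genes, whose proteins return to the nucleus and repress that same pair. CIART, also called CHRONO, is a further repressor of BMAL1 and CLOCK. The nuclear receptors REV-ERBα and REV-ERBβ, encoded by Nr1d1 and Nr1d2, repress Arntl through ROR elements, and the PAR-bZIP factors DBP and TEF drive D-box genes. Per1 is also an immediate early gene, which in many tissues responds within a short time to glucocorticoids and to cyclic AMP signalling through CRE sites. Blood leukocytes carry this clock, and circulating leukocyte numbers vary over the day.

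The promoters differ in which of these elements they carry. Windows of 300 bases (250 before and 50 after the start site, RefSeq, GRCm38.p6) were present for 9 of the 10 members, with 2 windows each for Per1, Arntl and Tef. Both strands were searched for the E-box CACGTG, the D-box TTATGNAA, the ROR element core TNGGTCA, the full CRE TGACGTCA and its 5-base part TGACG, which every full CRE contains. The E-box was present in windows of 4 members (Per1, Cry1, Ciart and Tef) and in 7.15% of all 32851 promoter windows of this length. Ciart carried 3 E-boxes, 116, 58 and 44 bases before its start, and 29 of all windows (0.0883%) carried 3 or more. The D-box was found in Per1 (24 bases before the start) and at 2 places in Per3, against 3.38% of all windows. The ROR core was found in Per3, Arntl and Tef, against 11.0% of all windows. No member window held the full CRE (1.79% of all windows), and its 5-base part was found in both Per1 windows and in Cry1, against 20.8%. These letters were not in the windows of Nr1d1, Nr1d2 and Dbp. Matches are descriptions of sequence and not sites shown to be bound.

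**Figure D1:**
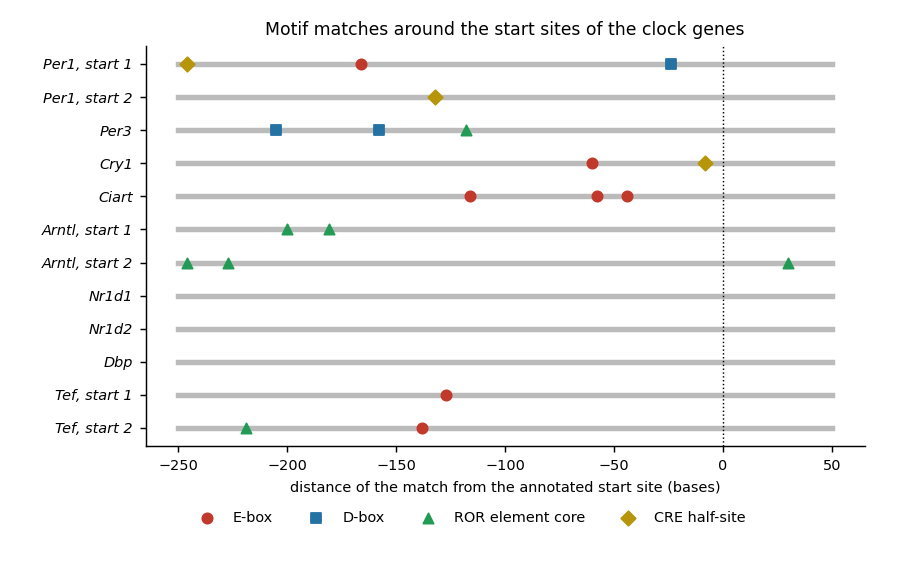
Position of each motif match in bases from the annotated start site (dotted line), for the 12 promoter windows of 9 clock genes. Each grey bar is a window and each symbol a match on either strand; Ciart has 3 E-boxes, and the windows of Nr1d1, Nr1d2 and Dbp hold no match.

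The windows of Ciart and Per1 are shown because these were the genes that differed most between the blood groups, and those of Cry1 and Tef because they carry the same E-box and their groups overlapped. Each reads 5′ to 3′ on the strand of the gene, with the E-box, D-box and TGACG matches in capitals. The Ciart window lies at chr3:95882179-95882478 on the minus strand, that of Per1 at chr11:69098699-69098998 on the plus strand, that of Cry1 at chr10:85185005-85185304 on the minus strand and the first Tef window at chr15:81802423-81802722 on the plus strand.
Ciart: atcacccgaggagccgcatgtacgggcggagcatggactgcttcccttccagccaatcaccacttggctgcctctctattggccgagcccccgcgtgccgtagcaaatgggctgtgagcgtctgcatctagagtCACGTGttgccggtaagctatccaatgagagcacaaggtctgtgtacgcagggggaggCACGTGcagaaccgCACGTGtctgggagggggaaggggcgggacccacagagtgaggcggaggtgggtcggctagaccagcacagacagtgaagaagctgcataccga
Per1: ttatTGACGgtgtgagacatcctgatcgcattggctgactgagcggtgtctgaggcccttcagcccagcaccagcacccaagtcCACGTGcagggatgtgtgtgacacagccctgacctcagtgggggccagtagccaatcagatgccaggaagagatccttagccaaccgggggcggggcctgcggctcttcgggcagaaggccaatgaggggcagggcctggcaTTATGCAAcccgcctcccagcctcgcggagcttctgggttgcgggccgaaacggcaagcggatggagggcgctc
Cry1: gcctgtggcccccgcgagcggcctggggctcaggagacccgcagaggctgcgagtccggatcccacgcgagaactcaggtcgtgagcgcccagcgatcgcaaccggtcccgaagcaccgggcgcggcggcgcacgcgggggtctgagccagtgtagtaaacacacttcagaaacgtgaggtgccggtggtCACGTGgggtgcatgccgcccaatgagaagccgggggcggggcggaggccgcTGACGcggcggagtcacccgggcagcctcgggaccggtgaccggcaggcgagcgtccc
Tef: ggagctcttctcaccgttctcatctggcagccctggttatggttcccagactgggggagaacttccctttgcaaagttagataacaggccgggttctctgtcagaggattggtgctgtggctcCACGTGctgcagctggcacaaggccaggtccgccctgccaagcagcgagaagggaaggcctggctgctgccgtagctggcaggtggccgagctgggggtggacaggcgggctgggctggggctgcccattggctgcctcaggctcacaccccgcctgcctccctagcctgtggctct

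In PBMCs, the measured differences between groups were not alike for all 10 members. Per1 and Ciart were higher in the 3 WT libraries than in the 3 ct libraries and lower in Y than in WT, Per1 was also lower in Y than in ct, and Per2 stood slightly above ct in both other groups. The libraries of the other 7 members (Per3, Cry1, Arntl, Nr1d1, Nr1d2, Dbp and Tef) overlapped in all 3 comparisons. In each comparison, 5.70% to 8.75% of all genes tested lay apart in a given direction, so most genes overlapped. Overlap does not show that a gene was unchanged, and Per2, Per3, Ciart and Nr1d1 had few counts. Values are CPM, RSEM expected counts scaled to a common library total with TMM factors, over 4686387 to 9055761 counts per library, of which 50.5% to 57.0% fell on 1 ribosomal RNA gene. All 10 members passed the filter on low counts. Because the members were chosen with these values known, the fold changes below, from an edgeR fit over 11635 genes, are given with their standard errors and without a p. Changes in bulk blood RNA cannot tell a shift in the share of a cell type from a change of RNA per cell.

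**Figure D2:**
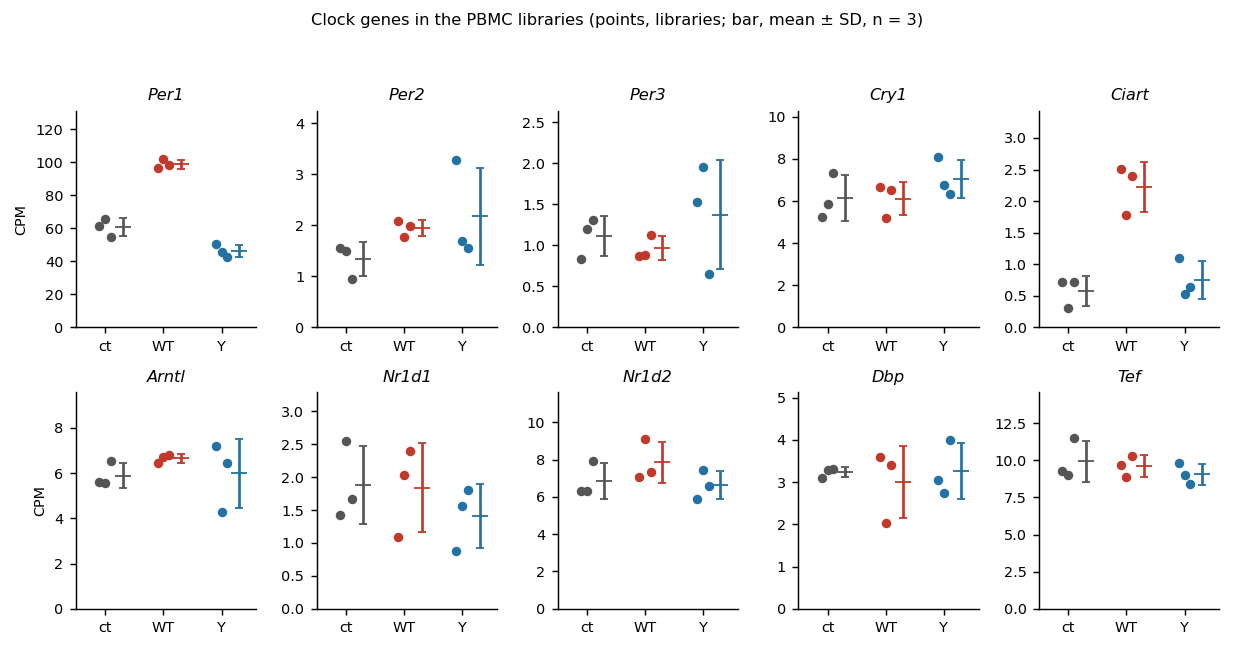
CPM of each of the 10 clock genes (y axis, from 0) in the ct, WT and Y libraries; points are libraries and the bar is the mean ± SD (n = 3). Per1 and Ciart in WT stand above every ct and Y library.

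The period and cryptochrome genes form the repressing arm of the loop. Per1 (chr11:69095217-69109960, plus strand, GRCm38) was the highest of the 10, both in CPM and per exon length. Its CPM was 61.4, 65.5 and 54.7 in ct, 96.2, 101.8 and 98.0 in WT, against 50.2, 45.4 and 42.7 in Y. The 3 groups did not overlap, with WT on top and Y at the bottom. The log2 fold change was 0.71 ± 0.09 (SE) in WT against ct, -0.40 ± 0.09 in Y against ct and -1.10 ± 0.09 in Y against WT, a fold of 0.466 for the last. These values rest on 230 to 882 counts per library.

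Per2 (chr1:91415982-91459324, minus strand), the closest relative of Per1 in the loop, was scarce, with 8 to 19 counts per library. Its CPM was 1.55, 1.50 and 0.949 in ct, 2.07, 1.77 and 1.98 in WT, against 3.27, 1.69 and 1.55 in Y. Every WT and Y library was above every ct library, in Y by a margin that vanishes when values are rounded, and Y overlapped WT. The log2 fold change was 0.55 ± 0.35 in WT against ct and 0.61 ± 0.36 in Y against ct, each under 2 standard errors. Relative to ct, Per2 thus stood higher in Y, where Per1 stood lower.

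Per3 (chr4:151003652-151044665, minus strand) had 5 to 15 counts per library. Its CPM was 0.833, 1.20 and 1.30 in ct, 0.873, 0.887 and 1.13 in WT, against 1.53, 1.95 and 0.645 in Y. The Y libraries spanned the other groups from below to above.

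Cry1 (chr10:85131700-85185064, minus strand), the cryptochrome repressor that partners the PER proteins, lay between 5.19 and 8.07 CPM in all 9 libraries. It was 5.23, 5.84 and 7.35 in ct, 6.65, 5.19 and 6.50 in WT, against 8.07, 6.77 and 6.32 in Y. The log2 fold change of WT against ct was -0.01 ± 0.17.

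Ciart (chr3:95878503-95882251, minus strand) showed the largest fold change of the 10. Its CPM was 0.714, 0.300 and 0.712 in ct, 2.51, 1.77 and 2.40 in WT, against 1.09, 0.521 and 0.645 in Y. In counts these were 6, 2 and 6 in ct, 23, 14 and 17 in WT, against 5, 4 and 5 in Y, so that each value carries a large counting error. The WT libraries stood clear of both other groups, which overlapped each other. The log2 fold change was 1.88 ± 0.39 in WT against ct, a fold of 3.69, and -1.64 ± 0.39 in Y against WT, and it was 0.24 ± 0.51 in Y against ct. By fold change in WT against ct, Ciart ranked 4 and Per1 225 of 11635 genes.

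The activator Arntl (chr7:113207465-113314126, plus strand) was 5.59, 5.54 and 6.52 CPM in ct, 6.44, 6.71 and 6.79 in WT, against 7.20, 4.29 and 6.45 in Y. All groups overlapped, and its log2 fold change was 0.17 ± 0.18 in WT against ct and -0.18 ± 0.18 in Y against WT.

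The nuclear receptor genes that repress Arntl also overlapped in every comparison. Nr1d1 (chr11:98767932-98775333, minus strand) was 1.43, 2.55 and 1.66 CPM in ct, 1.09, 2.03 and 2.40 in WT, against 0.873, 1.56 and 1.81 in Y, from 4 to 17 counts. Nr1d2 (chr14:18204054-18239127, minus strand) was 6.30, 6.29 and 7.95 CPM in ct, 7.09, 9.12 and 7.35 in WT, against 5.89, 7.42 and 6.58 in Y. Their log2 fold changes in WT against ct were -0.03 ± 0.36 and 0.19 ± 0.16.

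Of the PAR-bZIP output factors, Dbp (chr7:45705088-45710203, plus strand) was 3.09, 3.30 and 3.32 CPM in ct, 3.60, 2.03 and 3.39 in WT, against 3.05, 2.73 and 4.00 in Y. Dbp is among the strongest cycling transcripts in most tissues, and here its log2 fold change was -0.10 ± 0.25 in WT against ct and 0.12 ± 0.26 in Y against WT. Tef (chr15:81802421-81826863, plus strand) was 9.28, 8.99 and 11.5 CPM in ct, 9.71, 8.87 and 10.3 in WT, against 9.82, 8.98 and 8.39 in Y, with a log2 fold change of -0.05 ± 0.13 in WT against ct. Exons of 4 members share bases with a gene on the opposite strand: 539 bases of Dbp with Sphk2, 263 of Nr1d1 with Thra, 193 of Tef with Gm17597 and 33 of Arntl with Gm45355. Whether counting used strand is not given in the sources used here, so reads from these stretches may belong to either gene.

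Counted over the 10 members, 3 were higher in all WT than in all ct libraries (Per1, Per2 and Ciart) and 0 were lower, where 7.62% and 8.62% of all genes tested lay apart in those directions. In Y against ct, 1 was higher (Per2) and 1 lower (Per1), beside 5.70% and 7.55% of all genes. In Y against WT, 0 were higher and 2 lower (Per1 and Ciart), beside 8.54% and 8.75%. Nothing is read from these counts, since the members were selected on the same libraries. The median log2 fold change of the members was 0.08 in WT against ct, 0.004 in Y against ct and -0.14 in Y against WT, where all genes tested had medians of 0.004, -0.004 and 0.001. Over the 9 libraries, which share the 3 groups, the members also varied apart from one another: of 45 pairs, 4 had a Pearson r above 0.5 on log2 CPM, 20 had an r below 0, and the median r was 0.13. The highest was Per1 with Ciart (r = 0.77) and the lowest Nr1d2 with Dbp (r = -0.59). The genes whose log2 CPM was most like the mean standardised profile of the members were Rps10 (r = 0.98), Hist1h4a (0.95), Retreg3 (0.93), Ctns (0.93) and Hist1h2bm (0.93), over 9 libraries and with no test.

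Per unit of exon length, the levels in ct ran from Per1 at 10.7 CPM per kb down to Per3 at 0.116. Between them, in falling order, were Cry1 (1.84), Nr1d2 (1.27), Tef (1.26), Dbp (1.08), Arntl (0.782), Nr1d1 (0.610), Ciart (0.254) and Per2 (0.227). Neighbours such as Nr1d2 and Tef do not differ beyond their spread between libraries.

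The rest of the clock pathway was read from a list of 24 further clock genes, of which 17 passed the filter. This list was drawn up with earlier results of these data known, so its calls are no independent support for the members. In WT against ct, 2 of these 17 rose and 0 fell, at an adjusted p below 0.05 in edgeR, where 0.765% of all genes rose and 1.60% fell. The risers were Bhlhe40, which encodes the E-box repressor DEC1, and Klf10, a zinc finger repressor under clock control. In Y against ct, 0 of 17 passed (2 at an unadjusted p below 0.05, and 0 with DESeq2), beside 0.266% and 0.438% of all genes. In Y against WT, 0 rose and 3 fell, beside 0.438% and 0.817%: Bhlhe40, Klf10 and Nfil3, the bZIP factor that represses D-box genes. DESeq2 called 0 of the list in each comparison.

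Bhlhe40 was 7.02, 7.49 and 8.30 CPM in ct, 10.8, 13.4 and 11.6 in WT, against 7.86, 8.59 and 7.62 in Y. WT stood above both other groups, as for Ciart. Its log2 fold change was 0.65 ± 0.13 in WT against ct (edgeR quasi-likelihood test, Benjamini-Hochberg adjusted p = 0.0105; 0.0783 with DESeq2) and -0.57 ± 0.13 in Y against WT (edgeR adjusted p = 0.0453; 0.328 with DESeq2).

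Klf10 also stood highest in WT, with 14.6, 14.1 and 13.3 CPM in ct, 21.7, 19.3 and 20.9 in WT, against 17.2, 12.2 and 12.0 in Y. Its log2 fold change was 0.56 ± 0.12 in WT against ct (edgeR adjusted p = 0.0184; 0.0574 with DESeq2) and -0.62 ± 0.13 in Y against WT (edgeR adjusted p = 0.0196; 0.0693 with DESeq2). Nfil3 was 4.88, 3.60 and 3.91 CPM in ct, 5.35, 6.21 and 4.67 in WT, against 2.84, 2.99 and 2.84 in Y, so that Y lay below both other groups, and its log2 fold change in Y against WT was -0.90 ± 0.21 (edgeR adjusted p = 0.0437; 0.219 with DESeq2 and 0.0688 with the replicate number as a block). With 1 library left out in turn, the adjusted p reached 0.0637 for Bhlhe40 and 0.0743 for Klf10 in WT against ct, and 0.215, 0.173 and 0.189 for Bhlhe40, Klf10 and Nfil3 in Y against WT, so each of these calls can be lost with a single library. In WT against ct, Bhlhe40 was lost without ct replicate 1 or WT replicate 2, and Klf10 without any of the ct libraries or WT replicate 1 or 3. In Y against WT, Nfil3 was lost without any of the WT or Y libraries, Klf10 without WT replicate 1 or 3 or Y replicate 2 or 3, and Bhlhe40 without WT replicate 2 or 3, any Y library, or ct replicate 1 or 2. The remaining 14 genes tested, among them Clock, which encodes the partner of BMAL1 (0.02 ± 0.16 in WT against ct), passed in no comparison.

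**Figure D3:**
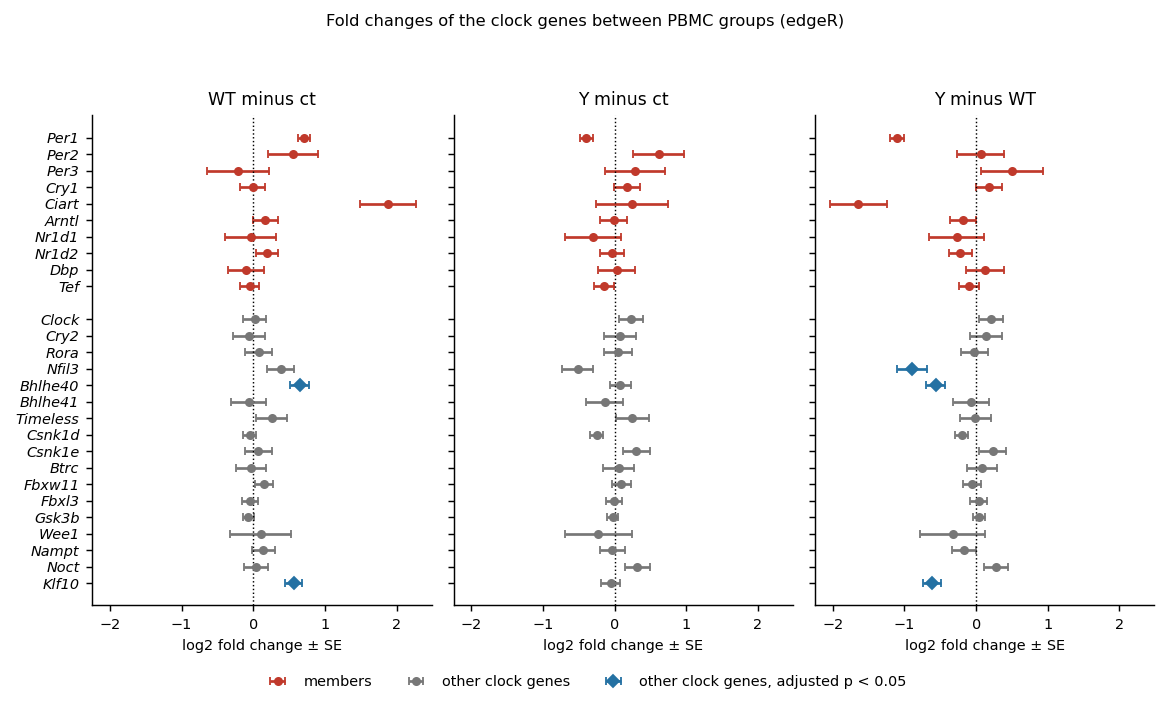
log2 fold change ± SE (x axis, edgeR) of the 10 members (top) and 17 further clock genes (bottom) in WT minus ct, Y minus ct and Y minus WT; blue diamonds are further clock genes with an adjusted p below 0.05. Ciart and Per1 lie right of 0 in WT minus ct and left of 0 in Y minus WT, while most of the rest sit within 1 or 2 SE of 0.

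Other gene groups moved in the same libraries. Of 15 genes known to be induced by glucocorticoids, to which Per1 also belongs, 12 were tested. These genes and the cell type markers below were also listed with earlier results of these data known. By the same edgeR threshold, 2 rose in WT against ct (Dusp1, a MAP kinase phosphatase and immediate early gene, and Cdkn1a, a cell cycle inhibitor) and 2 fell (Fkbp5, a chaperone that binds the glucocorticoid receptor, and Il7r). In Y against WT, 1 rose (Fkbp5) and 5 fell (Tsc22d3, Dusp1, Ddit4, Cdkn1a and Cxcr4), and in Y against ct 4 fell (Tsc22d3, Dusp1, Ddit4 and Cxcr4) and 0 rose. The list thus did not move one way in WT against ct. Dusp1 followed the order of Per1, with 96.2, 111.0 and 91.9 CPM in ct, 141.4, 140.3 and 141.8 in WT, against 71.6, 71.4 and 72.3 in Y. Fkbp5 ran the other way, with 11.6 to 14.5 CPM in ct, 5.57 to 6.79 in WT and 10.9 to 12.0 in Y, and its log2 fold change in WT against ct was -1.03 ± 0.13 (edgeR adjusted p = 0.000434).

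Markers of cell types moved as well. The summed level of 10 neutrophil markers was 292 to 313 CPM in Y against 142 to 157 in ct and 136 to 146 in WT, and 6 of the 9 tested rose in Y against ct. Erythroid markers were 6868 to 8239 CPM in ct, 4272 to 4957 in WT and 4441 to 5012 in Y, and 6 of 6 fell in WT against ct. Platelet markers were 475 to 512 CPM in ct, 298 to 336 in WT and 380 to 385 in Y, with 6 of 6 lower in WT against ct. NK cell markers were 40.2 to 43.2 CPM in ct, 50.5 to 56.5 in WT and 42.0 to 42.6 in Y, and 2 of 6 were called higher in WT against ct. Monocyte markers were 77.4 to 85.6, 90.6 to 95.2 and 73.1 to 76.0 CPM in ct, WT and Y, with 1 of 7 called higher in WT against ct and 2 of 7 called lower in Y against WT. B cell markers were 209 to 220, 225 to 232 and 210 to 219 CPM in the same order of groups, although edgeR called 0 of 6 in WT against ct, and 0 had an unadjusted p under 0.05. T cell markers were 190 to 217, 193 to 195 and 203 to 211 CPM, so that WT lay within the range of ct and below Y, and edgeR called 0 of 8 in each comparison (1 at an unadjusted p under 0.05, in WT against ct). The B, NK and monocyte sums, but not that of T cells, had the same order of WT over the other groups as Per1 and Ciart, and their part in the clock gene differences was not tested.

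On the cell surface, the unit was TPM, transcript abundance scaled to a fixed total per library, summed over the transcripts of a gene, and the 4 cell types other than monocytes gave low values throughout. The protein-coding share of TPM was 0.645% to 2.96% in B, T, NK and HSPC libraries and 16.9% to 18.1% in monocytes, which were also sequenced on another platform, so cell type and platform cannot be told apart in any comparison with monocytes. The share was taken over all transcripts listed for a cell type, 149488 for monocytes and 102168 for each other type. For values rescaled to protein-coding transcripts (the protein-coding scale), the TPM of a gene, over all its transcript types, were divided by this share. The monocyte libraries were high in monocyte markers (summed 927 to 1033 TPM) but also in neutrophil markers (1271 to 1336 TPM), and their HSPC markers (255 to 393 TPM) lay above those of the HSPC libraries (59.1 to 125 TPM). B, T and NK libraries each had the highest sum of their own markers. NK libraries also held neutrophil markers (20.2 to 28.1 TPM) and HSPC markers (10.4 to 19.3 TPM). In B and T libraries these reached at most 0.522 and 1.79 TPM, and their part in the NK differences was not tested. Of the 10 members, 5 exceeded 1 TPM in at least 3 of the 15 libraries (Per1, Cry1, Arntl, Nr1d2 and Tef) and were tested with limma on log2(TPM + 1), a scale that understates changes of low genes.

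Per1 had the highest mean TPM of the 10 members on each cell type, as it had the highest level per unit length in PBMCs, although on B cells its range overlapped that of Tef, which exceeded it in B replicate 2. It was 4.93, 2.49 and 2.25 TPM on B cells, 2.27, 6.90 and 5.44 on T cells, 3.78, 10.4 and 11.6 on NK cells, 2.32, 2.40 and 2.78 on HSPCs, and 44.3, 30.7 and 27.0 on monocytes. On NK cells it was higher than the mean of B, T and HSPC by 1.04 ± 0.32 (SE) on the log2 scale (limma, Benjamini-Hochberg adjusted p = 0.0426), although NK replicate 1 overlapped the other types. This call rests on single libraries: the limma adjusted p was 0.209 without NK replicate 2 and 0.275 without NK replicate 3, and 0.0522 to 0.0741 without B replicate 2 or 3, T replicate 1 or 3, or any HSPC library. It was 0.105 without the filter on low values and 0.0532 with the replicate number as a block. The orders T over B and B over HSPC were within the spread. When TPM were rescaled to protein-coding transcripts, the order of Per1 means was T (419), NK (354), monocytes (194), HSPC (166) and B (130 TPM), and it was then higher on T cells than on the other 3 types by 1.11 (limma adjusted p = 0.00175) and lower on B cells by -1.17 (limma adjusted p = 0.00115). On that scale it was also higher on NK cells by 0.75 (limma adjusted p = 0.0356) and lower on HSPCs by -0.69 (limma adjusted p = 0.0258). On monocytes 62.2% of Per1 TPM came from a single transcript, and on T cells another transcript led with 47.5%.

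Cry1 was 0.527, 0.466 and 0.456 TPM on B cells, 0.141 to 0.393 on T cells, 0.166 to 0.440 on NK cells, 0.186 to 0.279 on HSPCs, and 9.17, 8.55 and 8.00 on monocytes. Cry1 passed the filter only through the 3 monocyte libraries, so its difference there is a description. It was called in none of the comparisons among the first 4 types, although on T cells its difference turned from -0.09 to 0.49 when TPM were rescaled to protein-coding transcripts (limma adjusted p = 0.0405). The log2 difference between monocytes and the other types was 2.85 ± 0.09 in TPM and 1.40 on the protein-coding scale, where Cry1 was 48.8 ± 4.11 (SD, n = 3) on monocytes and averaged 13.7 to 23.3 on the other types.

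Arntl was 1.08, 1.01 and 0.709 TPM on B cells, 0.184, 0.790 and 0.653 on T cells, 0.970, 1.07 and 1.14 on NK cells, 0.124, 0.194 and 0.150 on HSPCs, and 1.49, 3.12 and 2.99 on monocytes. HSPCs were below the mean of B, T and NK cells by -0.65 ± 0.15 (limma adjusted p = 0.00626), and by -2.00 on the protein-coding scale (limma adjusted p = 5.34e-05). Nr1d2 showed the same order, with 0.192, 0.419 and 0.283 TPM on HSPCs, 0.770 to 1.08 on B cells, 0.475 to 0.766 on T cells and 0.371 to 1.26 on NK cells, and a log2 difference of -0.47 ± 0.15 on HSPCs (limma adjusted p = 0.0375, and -1.17 with 0.00151 on the protein-coding scale). The Nr1d2 call was lost without any 1 HSPC library, B replicate 1 or 2, T replicate 2 or 3, or NK replicate 2 or 3 (limma adjusted p = 0.0541 to 0.164), and without the filter on low values (0.112). Across the 5 types, retained-intron transcripts made up 32.4% to 61.9% of Arntl TPM and 33.2% to 48.7% of Nr1d2 TPM.

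Tef was 1.70, 3.00 and 1.57 TPM on B cells, 0.206, 0.757 and 0.352 on T cells, 1.08, 2.26 and 2.05 on NK cells, 0.550, 0.380 and 0.616 on HSPCs, and 3.15, 8.92 and 5.16 on monocytes. It was higher on B cells than on the mean of T, NK and HSPC by 0.75 ± 0.23 (limma adjusted p = 0.0279) and lower on T cells than on the other 3 by -0.71 ± 0.23 (limma adjusted p = 0.0278). Neither passed on the protein-coding scale (limma adjusted p = 0.0660 and 0.133) or without the filter on low values (0.0868 and 0.0881), and each lost its call with a single library: without B replicate 1 or 2 the adjusted p of the first was 0.0552 and 0.187, and without T replicate 1 or 3 that of the second was 0.153 and 0.0888.

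Per1, Arntl, Nr1d2 and Tef, the 4 members that passed the filter also without the monocyte libraries, were called higher on monocytes than on the mean of the other 4 types, and so were 89.2% of the 13020 genes tested (4.35% were lower). Cry1, the fifth member tested, is not counted here. Rescaled to protein-coding transcripts, the difference of Per1 was -0.30, of Tef -0.79, of Arntl -1.08 and of Nr1d2 -1.72, so that the direction of these 4 depended on the scale. On that scale all 10 members were tested on monocytes, and 1 was called higher (Cry1) beside 23.7% of all genes and 5 lower (Ciart, Arntl, Nr1d1, Nr1d2 and Dbp) beside 19.1%. The filter was applied after rescaling, so these include Ciart, Nr1d1 and Dbp, which did not reach it in TPM. Their values lie near the floor: Nr1d1 was 0, 0.130 and 0.890 TPM on monocytes. In the comparisons among the other types, 1 of 5 was called higher on B cells (Tef) beside 21.2% of all genes, with 8.10% lower. On T cells 1 was lower (Tef) beside 34.3%, with 5.53% higher, and on NK cells 1 was higher (Per1) beside 15.3%, with 1.03% lower. On HSPCs 2 were lower (Arntl and Nr1d2) beside 18.2%, with 6.86% higher.

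**Figure D4:**
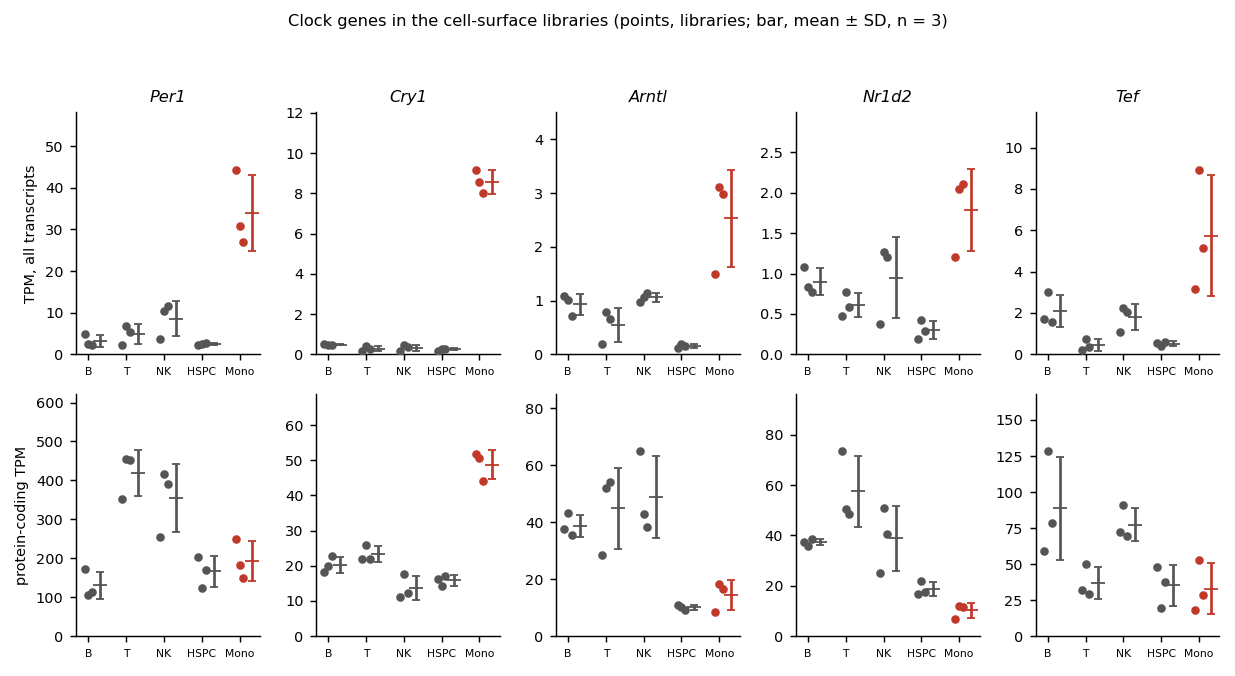
Level of the 5 tested clock genes on the surface of B cells, T cells, NK cells, HSPCs and monocytes, in TPM (top row) and in TPM divided by the protein-coding share of the library (bottom row). Points are libraries and bars the mean ± SD (n = 3). Monocytes (red) are highest for all 5 genes in the top row and for Cry1 alone in the bottom row.

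The other 5 members did not reach the filter. Ciart was 0.0765 to 0.357 TPM on B cells, 0.0918 to 0.109 on T cells, 0.270 to 0.464 on NK cells, 0.185 to 0.487 on monocytes and at most 0.0159 on HSPCs, where 1 library listed it at 0. Ciart, Per2, Per3, Nr1d1 and Dbp stayed below 1 TPM in all 12 libraries of the first 4 types, and the highest value on monocytes was 1.77 TPM for Per2, 2.24 for Per3, 0.890 for Nr1d1 and 1.32 for Dbp. Of the further clock genes, 16 were tested on the surface, and on NK cells 5 were called higher and 0 lower, beside 15.3% and 1.03% of all genes. On T cells 0 were higher and 8 lower in TPM, beside 5.53% and 34.3%. On the protein-coding scale, where 13.9% of all genes were lower on T cells, Klf10 averaged 180.5 on T cells, 134.5 on B cells and 172.3 on HSPCs. Bhlhe40, Csnk1e and Wee1 were still called lower on T cells on that scale (log2 differences -1.97, -0.61 and -2.15, limma adjusted p = 0.000134, 0.0388 and 3.24e-06). Cry2, Timeless, Fbxw11, Nampt and Klf10 were not. On B cells 1 was higher and 2 lower (21.2% and 8.10%), and on HSPCs 2 were higher and 2 lower (6.86% and 18.2%). Among these calls, Nfil3 (B and NK cells), Nampt (T and NK cells) and Cry2 (T cells) passed the filter only with the monocyte libraries, so they are descriptions. The 3 called in PBMCs averaged, on NK cells and monocytes, 10.7 and 3.47 TPM (Bhlhe40), 10.1 and 22.8 TPM (Klf10) and 1.04 and 32.4 TPM (Nfil3). Bhlhe40 and Klf10 were higher on NK cells than on the other 3 types of that comparison (log2 differences 2.95 and 1.63, limma adjusted p = 3.43e-07 and 0.000252). The log2 difference of Nfil3 was 0.82, a description, since outside monocytes it exceeded 1 TPM only in NK replicates 2 and 3 (1.56 and 1.16 TPM). On the protein-coding scale the differences of Bhlhe40, Klf10 and Nfil3 were 4.79, 1.50 and 2.51 (limma adjusted p = 1.84e-07, 0.000318 and 9.86e-06). Klf10 then averaged 450.1 on NK cells and 130.0 on monocytes, the reverse of its order in TPM.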

How the data were processed

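PBMC values were expected counts per gene deposited by the authors as RSEM output. The submitters' processing notes also name Trim Galore, STAR and featureCounts, and the builds mm10 and hg38. Surface values were TPM per transcript deposited by the authors, made with kallisto, with monocytes under another annotation release. The fits used the transcripts shared by all 5 cell types (102001). Printed TPM, marker sums and the protein-coding share used all transcripts listed for a cell type. The depth of the surface libraries is unknown. The study's methods describe the removal of duplicate reads by barcode and name kallisto 0.48.0 for reads aligned to the human transcriptome. The versions used for the mouse reads and the strand settings are not given in the sources used here.

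Expected counts were rounded and fitted with edgeR 4.0.16 (TMM, filterByExpr, quasi-likelihood test) over all 9 PBMC libraries in R 4.3.3. TPM were summed per gene, filtered (above 1 TPM in at least 3 of 15 libraries), and log2(TPM + 1) was fitted with limma 3.58.1 (mean-variance trend) over all 15 libraries, comparing monocytes with the mean of the other types, and each other type with the mean of the remaining 3. P-values were Benjamini-Hochberg adjusted over all genes tested and called below 0.05. DESeq2 1.42.0 was an alternative, with another normalization, no filter, a pseudocount of 0.1, a protein-coding scale, a replicate block, and each library left out. Both fits were tested on simulated data. The members and gene lists were chosen with earlier results of these data known. All 10 members are named, as are further clock genes called in a PBMC comparison and the 5 genes most like the members. Where nothing says that libraries came from separate mice, p-values measure only the spread between libraries.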

Additional observations from a re-analysis of the deposited data

How the results depend on the processing

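In PBMCs, each member's 3 fold changes were recomputed under 14 settings. Of 420 values, 418 moved by less than 1 SD between libraries, and the 2 that moved more were those of Per3 without Y replicate 2 (-0.16 in Y against ct and 0.06 in Y against WT). Leaving out 1 of 3 libraries can hardly move a group mean by 1 SD, so this count says little about stability. Genes called in WT against ct, Y against ct and Y against WT numbered 275, 82 and 146. Without the filter they numbered 484, 257 and 366, with DESeq2 170, 64 and 95, and with 1 library left out 168 to 253, 34 to 167 and 52 to 170, where 167 was the count without ct replicate 3. Of the further clock genes, DESeq2 called 0, 0 and 0, and with 1 library left out 0 to 2, 0 to 0 and 0 to 3 were called. The fold change of Klf10 in Y against ct, not called, turned to 0.020 without Y replicate 2 and 0.043 without Y replicate 3, within a range of -0.21 to 0.043 with 1 library left out.

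On the surface, members called on B, T, NK, HSPC and monocyte libraries numbered 1, 1, 1, 2 and 5. Without the filter they numbered 0, 0, 1, 1 and 9, where Tef on B and T cells, Per1 on NK cells (limma adjusted p = 0.105) and Nr1d2 on HSPCs (0.112) lost their calls and the 1 on NK cells was Ciart (0.34, 0.0320). With a pseudocount of 0.1 they were 2, 1, 3, 2 and 5, and on the protein-coding scale, where members with low TPM also pass the filter because it follows the rescaling, 4, 4, 4, 7 and 6 of 10. In TPM the calls were 1 higher on B, 1 lower on T, 1 higher on NK, 2 lower on HSPC and 5 higher on monocyte libraries, where Cry1 passed the filter only through those libraries and supports nothing, whereas on the protein-coding scale they were 1 higher and 3 lower on B (10.7% and 19.9% of all genes), 3 and 1 on T (16.4% and 13.9%), 4 and 0 on NK (11.1% and 2.91%), 2 and 5 on HSPC (14.7% and 17.6%) and 1 and 5 on monocyte libraries (23.7% and 19.1%). Without the monocyte libraries, an alternative chosen after seeing the data, NK cells had 2 (Per1 and Arntl) and HSPCs 3 of 4 tested, where Tef was added (-0.59, limma adjusted p = 0.0250). With 1 library left out the counts were 0 to 1, 0 to 1, 0 to 3, 1 to 4 and 4 to 5, the 4 arising because Cry1 fell below the filter without any 1 monocyte library. In the main fit 89.2% of all genes were called higher on monocytes. Apart from the protein-coding scale, the other settings have no such share beside their counts, so nothing is read from these about the members. On the protein-coding scale the fold change turned on T cells for Cry1 (0.49), Arntl (0.68) and Nr1d2 (0.91), and on monocytes for Per1 (-0.30), Arntl (-1.08), Nr1d2 (-1.72) and Tef (-0.79). On T cells, values not called also turned with 1 library left out, for Arntl without T replicate 1 (0.051, range -0.25 to 0.051), for Nr1d2 without T replicate 1 (0.0019, range -0.14 to 0.0019) and for Per1 without T replicate 2 (-0.13) and without NK replicate 1 (-0.011, range -0.13 to 0.51). On NK cells, Cry1 turned without T replicate 2 (0.016) and without NK replicate 1 (0.081, range -0.072 to 0.081). The cause of these shifts was not tested.

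Same-numbered PBMC libraries did not deviate together (r from -0.061 to 0.059), and on the surface same-numbered pairs had an r from -0.26 to 0.47, with 6 of 30 above 0.1. Since not every pair exceeded 0.1, the numbers were not treated as pairs. With the replicate block, PBMC calls were 234, 74 and 128, and further clock genes 2, 0 and 2, where Nfil3 was lost. On the surface the block gave 1, 1, 1, 3 and 5 members, where Per1 on NK cells lost its call (limma adjusted p = 0.0532) and Arntl on NK cells (0.0425) and Tef on HSPCs (-0.59, 0.0305) gained one. Counts of 2 to 23 per library limit the precision of Per2, Per3, Ciart and Nr1d1 in PBMCs.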
